A study of Homo sapiens with 16 samples.

Results

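K1 cells, a line derived from GLAG-66 and grown from a human papillary thyroid carcinoma, were exposed to the PPM1D inhibitor GSK2830371 at 25 µM for 24 h and compared with the same cells kept in the vehicle, 0.2% DMSO. The comparison rests on 4 of the 16 libraries of the series, namely DMSO replicates 1 and 2 and GSK2830371 replicates 1 and 2, which were taken by line, treatment and replicate number from the sample labels. The series also holds K1 under 10 µM nutlin, an MDM2 inhibitor, and under nutlin with GSK2830371, and the same 4 treatments of TPC1, another papillary thyroid carcinoma line. Every library is stranded RNA-seq of polyadenylated RNA. The study describes its replicates in general as independently prepared and the labels do not name the source of each library, so the p values are read as measuring the spread between these libraries. Each line is a single tumor-derived culture.

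PPM1D, also called Wip1, is a serine/threonine phosphatase that removes phosphates from p53 and from damage-response kinases, ATM and CHEK1 among them, and its own gene is a p53 target, which closes a negative feedback loop. MDM2 restrains p53 by another route, as the ubiquitin ligase that marks it for degradation. Genes activated by p53 include inhibitors of the cell cycle such as CDKN1A, mediators of apoptosis such as BBC3, and MDM2 itself.

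The 4 libraries hold 30241713 to 37161241 counts on genes, and 15900 genes exceeded 0.1 CPM (counts scaled to a common library size) in at least 2 of the 8 K1 libraries. The GSK2830371 libraries stand apart from the other K1 libraries by a trend with the GC content of the transcripts. Relative to the DMSO mean, a gene's level rose by 0.19 on the log2 scale per 10 percentage points of GC in GSK2830371 replicate 1 and by 0.12 in replicate 2, against 0.028 and 0.063 in the nutlin libraries and 0.038 and 0.0029 in those of the combination (12214 genes above 1 CPM). In the quintile of genes with the lowest GC content the median gene was lower by 0.34 in replicate 1 and by 0.19 in replicate 2. In the quintile with the highest GC content it was higher by 0.15 and 0.10. Whether this trend arose in the cells or in the libraries cannot be told apart here, since both GSK2830371 libraries carry it and no DMSO library does.

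**Figure D1:**
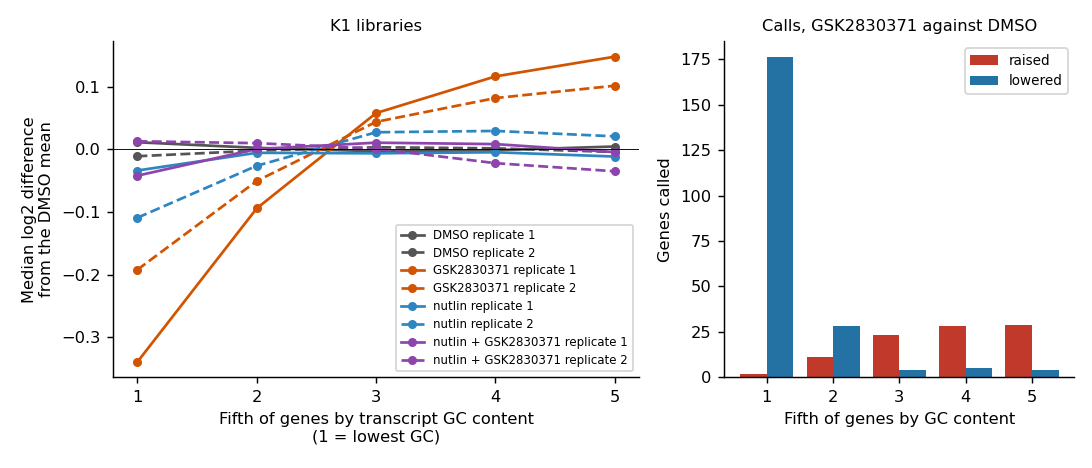
Left, median log2 difference from the DMSO mean (vertical axis) in each of the 8 K1 libraries, for quintiles of the genes ordered by transcript GC content; right, number of genes called raised or lowered by GSK2830371 in each quintile. The GSK2830371 lines run from -0.34 and -0.19 in the lowest quintile to 0.15 and 0.10 in the highest, and the lowest quintile holds 176 of the lowered genes.

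GSK2830371 raised 117 genes (0.736% of those tested) and lowered 238 (1.5%) by more than 1.5-fold at an adjusted p under 0.05 (quasi-likelihood test of edgeR, p values adjusted by Benjamini-Hochberg). At the adjusted p alone, 1333 genes were higher (8.38%) and 1714 lower (10.8%). The lowest quintile of GC content held 176 of the lowered genes and 2 of the raised ones, and the median GC content was 37.7% over the lowered genes, 55.7% over the raised genes and 48.4% over all genes tested. All 355 called genes had GSK2830371 libraries that did not overlap with the DMSO libraries, in a table where 31% of all genes lay above without overlap and 27% below. Replicate 1 departed further than replicate 2 for 203 of the 238 lowered genes and for 64 of the 117 raised genes.

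The calls were therefore read in 3 further fits. With GSK2830371 replicate 2 as the only treated library, 58 of the 117 raised and 78 of the 238 lowered genes were called again, and with replicate 1 as the only treated library 73 and 209 were. These fits take the spread from the other K1 treatments and assume that the lone treated library varies like them. With the trends in GC content and transcript length removed from each library, 41 raised and 37 lowered genes were called again, and all calls of that fit came to 60 raised (0.399%) and 46 lowered (0.306%). A gene is said to hold where it was called in the same direction in all of these fits, which was so for 26 raised genes (0.164%) and 22 lowered genes (0.138%). Leaving out a DMSO library instead changed membership more than number. Without DMSO replicate 1, 28 raised and 15 lowered genes held, 18 and 11 of them among those above, and without DMSO replicate 2 the numbers were 24 and 26, with 18 and 13 shared.

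**Figure D2:**
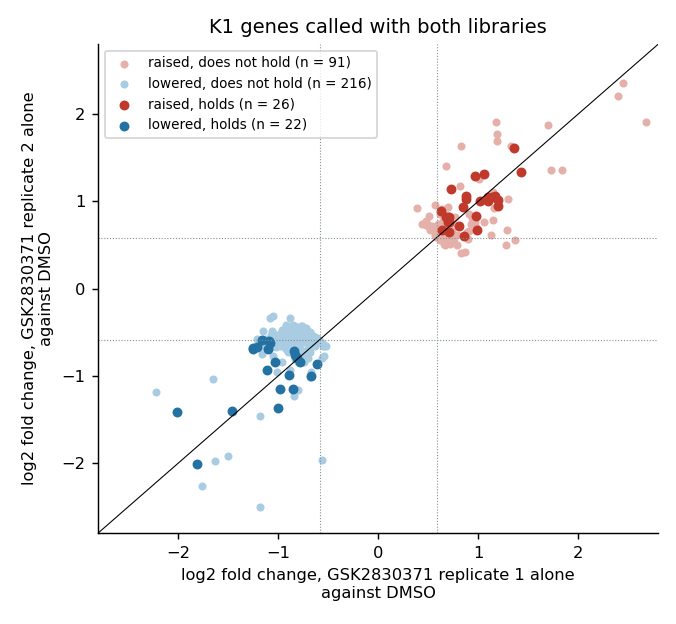
Log2 fold change against DMSO with GSK2830371 replicate 1 as the only treated library (horizontal axis) and with replicate 2 as the only treated library (vertical axis) for the 355 called genes; the solid line marks equality, dotted lines mark 1.5-fold, and 3 genes lie beyond the axes at 2.8. The 22 lowered and 26 raised genes that hold are drawn in dark colors, and most lowered genes lie above the line of equality, nearer to 0 in replicate 2.

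PPM1D itself (chr17:58677554-58743641, GRCh37) was at 21.0 and 22.6 CPM in the DMSO libraries and at 18.3 and 18.6 in the GSK2830371 libraries. The treated libraries lie below the controls without overlap, but the difference did not pass the test (log2 fold change -0.24 ± 0.093, SE, adjusted p = 0.0911, edgeR). MDM2 rose from 155 and 157 CPM to 190 and 210 (0.36 ± 0.065, adjusted p = 0.00224), less than the 1.5-fold limit, and by 0.58 with the GC and length trend removed, also short of that limit.

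CDKN1A (chr6:36644237-36655114), which encodes the cyclin-dependent kinase inhibitor p21, had the smallest adjusted p among the genes that hold. It stood at 111 and 118 CPM in DMSO and at 232 and 229 under GSK2830371. The GSK2830371 values lie close together and well above both controls, a log2 fold change of 1.01 ± 0.058 (SE, adjusted p = 2.76e-06, edgeR), and 0.88 with the trend removed. BTG2 (chr1:203274619-203278730), an antiproliferative p53 target that recruits the mRNA deadenylation machinery, went from 7.47 and 8.57 CPM to 17.7 and 16.6 (1.09 ± 0.096, adjusted p = 0.000126). TNFRSF10A, a death receptor for TRAIL, rose from 5.90 and 5.69 CPM to 10.5 and 8.78 (0.74 ± 0.11, adjusted p = 0.000723). All of these hold.

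BBC3, the pro-apoptotic BH3-only protein PUMA, was at 10.7 and 9.41 CPM in DMSO and at 15.5 and 16.8 under GSK2830371 (0.69 ± 0.10, adjusted p = 0.000781, edgeR). FDXR, ferredoxin reductase of mitochondria, was at 23.2 and 20.9 CPM against 35.4 and 34.1 (0.66 ± 0.071, adjusted p = 0.000266). Both were called in the 4 libraries without overlap and fell short of 1.5-fold with the trend removed, at 0.52 and 0.51. Among 70 tested p53 targets, 22 were higher and 2 lower at adjusted p under 0.05, beside 8.38% and 10.8% of all genes, and 5 were called raised and none lowered. The median was 0.19 over the list and 0.018 over all genes. With the trend removed 30 were higher and 1 lower, beside 5.82% and 5.72% of all genes, and 15 members (21.4%) were higher in every fit, beside 2.48% of all genes. Further members that rose by less than 1.5-fold were SESN2, a sestrin that restrains mTORC1 (0.54 ± 0.055), GADD45A, a growth arrest gene (0.52 ± 0.079), PHLDA3, an inhibitor of AKT (0.41 ± 0.052), and XPC, a DNA damage sensor (0.40 ± 0.054). SESN2 is also counted among the targets of ATF4 below. FAS and GDF15, other p53 targets, had adjusted p values of 0.751 and 0.282, GDF15 at under 1 CPM in both DMSO libraries.

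The other genes that rose and hold belong to several kinds. PTGES (chr9:132500610-132515321), the inducible prostaglandin E synthase, was at 65.4 and 55.2 CPM in DMSO and at 118 and 147 under GSK2830371 (1.13 ± 0.15, adjusted p = 0.000478, edgeR). Of the 12 tested genes of the prostaglandin pathway it was the only member that passed the test, and PTGS2, the inducible cyclooxygenase, had a log2 fold change of 0.071 (adjusted p = 0.787). SLC1A1 (chr9:4490468-4587469), a glutamate and cysteine transporter, rose from 5.30 and 4.31 CPM to 10.0 and 11.9 (1.19 ± 0.13, adjusted p = 0.000266), the largest increase that holds among genes with at least 5 CPM in the higher group. Transport genes raised with it were SLC2A10, a glucose transporter family member (0.76 ± 0.085), and TRPV4, a calcium-permeable cation channel (0.76 ± 0.094).

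Regulators of signaling and transcription were also among the raised genes that hold. DUSP1, a phosphatase that switches off MAP kinases, was at 82.7 and 74.1 CPM in DMSO against 127 and 133 under GSK2830371 (0.73 ± 0.065, adjusted p = 0.000126, edgeR). KLF2, a zinc finger transcription factor, went from 26.7 and 24.1 CPM to 49.96 and 45.3 (0.91 ± 0.098, adjusted p = 0.000266), and TXNIP, which binds thioredoxin and limits glucose uptake, from 11.8 and 12.1 to 18.6 and 19.0 (0.65 ± 0.082, adjusted p = 0.000395). In each of them the 2 treated values agree closely and lie above both controls. NR4A3, an orphan nuclear receptor, rose from 0.827 and 1.11 CPM to 1.78 and 2.03 (0.97 ± 0.22).

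A pair of retinoid enzymes was among them. DHRS3, which reduces retinaldehyde to retinol, stood at 50.8 and 36.1 CPM in DMSO and 72.1 and 95.6 under GSK2830371 (0.95 ± 0.21, adjusted p = 0.00600, edgeR). RDH10, which oxidizes retinol to retinaldehyde, stood at 42.1 and 33.6 CPM against 58.5 and 70.0 (0.76 ± 0.11, adjusted p = 0.000717). For both genes the spread within a treatment is wide, and the treated libraries still lie above the controls. DHRS3 was no longer called without DMSO replicate 2. KDELR3, which returns escaped chaperones to the endoplasmic reticulum, rose by 0.68 ± 0.062, and GCNT3, a mucin glycosyltransferase, by 0.95 ± 0.13. CPA4, a carboxypeptidase, rose by 0.84 ± 0.15, and C10orf54, which encodes the immune checkpoint protein VISTA, by 0.89 ± 0.17. The largest increases that hold belong to genes of low level. FAM115C was at 0.285 and 0.404 CPM against 0.891 and 1.06 (1.49 ± 0.32), and its reads may be split with a near-identical family member. PDGFRL was at 1.48 and 1.21 CPM against 3.63 and 3.39 (1.38 ± 0.20). RNASE4 shares its promoter and 5′ exons with ANG, so reads of these genes may not be fully separable.

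**Figure D3:**
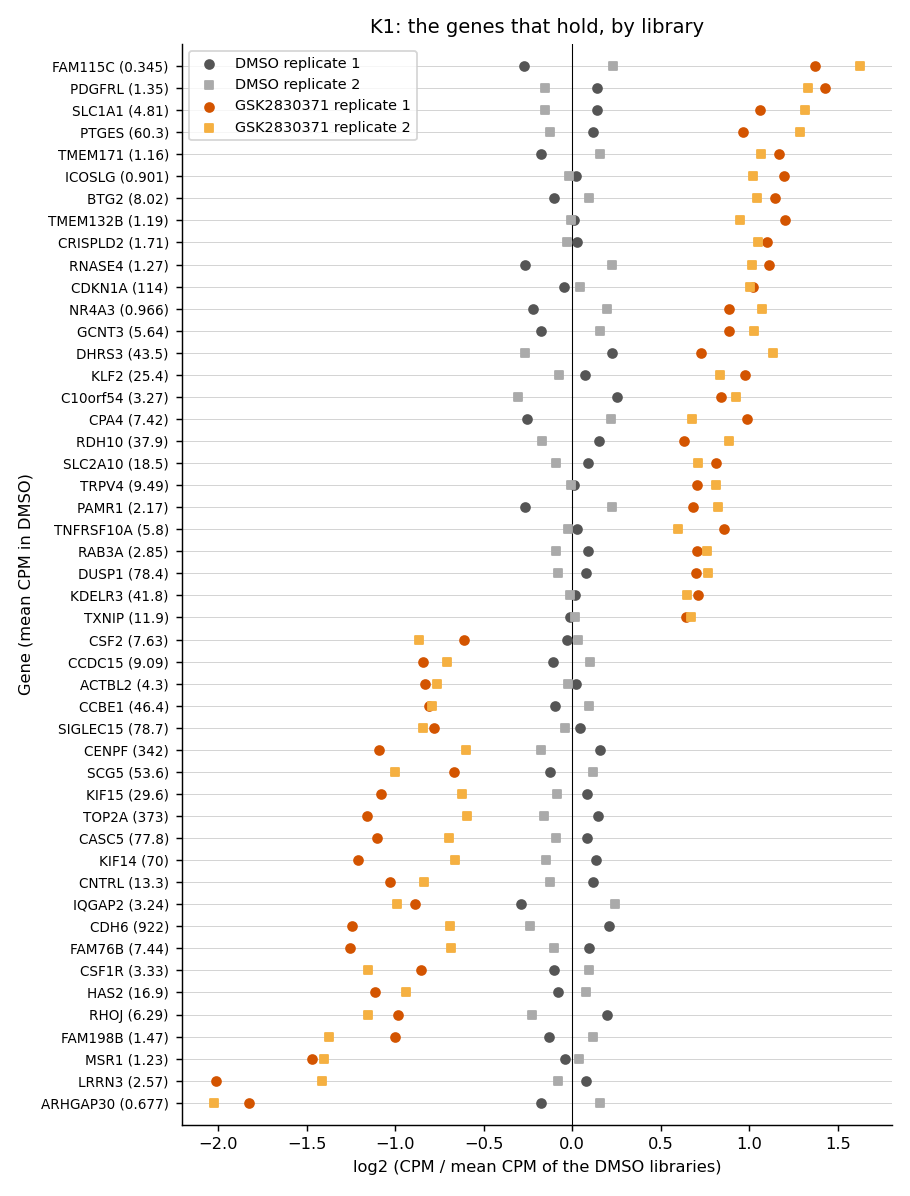
Level of each gene that holds in the 4 libraries, as log2 of its CPM over the mean CPM of the DMSO libraries (horizontal axis), with that mean in parentheses beside each gene. The 26 raised genes lie to the right of both DMSO points in both treated libraries and the 22 lowered genes to the left, and for TOP2A, CENPF, KIF14 and CDH6 GSK2830371 replicate 1 lies further out than replicate 2.

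Several genes of mitosis fell. TOP2A (chr17:38544777-38574148), the topoisomerase that untangles sister chromatids, was at 413 and 334 CPM in DMSO and at 167 and 248 under GSK2830371 (-0.85 ± 0.17, adjusted p = 0.00367, edgeR). KIF14, a kinesin of cytokinesis, was at 76.7 and 63.2 CPM against 30.2 and 44.2 (-0.91 ± 0.16, adjusted p = 0.00216). CENPF, a kinetochore protein, was at 382 and 303 CPM against 161 and 226 (-0.82 ± 0.17, adjusted p = 0.00502). In all of them replicate 1 is the lowest library, replicate 2 the next, and DMSO replicate 2 is the lower control. CASC5, the kinetochore scaffold KNL1, fell by 0.88 ± 0.13 on the log2 scale and KIF15, a spindle kinesin, by 0.83 ± 0.15. Some of these genes hold by a narrow margin, the 1.5-fold limit being 0.585 in magnitude. With replicate 2 as the only treated library, TOP2A was at -0.59, CENPF at -0.60, KIF15 at -0.62 and KIF14 at -0.66. With the trend removed, CASC5 was at -0.59.

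Of 40 mitosis genes tested, 20 were lower at adjusted p under 0.05 and none higher, beside 10.8% and 8.38% of all genes. Of the 40, 14 were called lowered, beside 1.5% of all genes. All 40 had a negative log2 fold change, beside 7455 of the 15900 genes tested. Their values ran from -0.91 to -0.13 with a median of -0.37. In 34 of the 40 (85%) both treated libraries lay below both controls, beside 27% of all genes. With the trend removed 18 were lower, beside 5.72% of all genes. In every fit, those with 1 treated library included, 11 (27.5%) were lower, beside 2.70% of all genes. Summed over the list, the level was 4796 and 4167 CPM in DMSO and 2900 and 3617 CPM under GSK2830371. In bulk RNA, fewer cells in mitosis and less mitotic mRNA per cell cannot be told apart. Some central kinases and cyclins did not pass the test. CCNB1, cyclin B1, was at 183 and 161 CPM against 127 and 151 (adjusted p = 0.0836), PLK1 at 215 and 181 against 146 and 180 (adjusted p = 0.227) and AURKB at 64.4 and 59.6 against 52.6 and 60.9 (adjusted p = 0.375). In each of them GSK2830371 replicate 1 is the lowest library and replicate 2 lies near the controls. Of 42 DNA replication genes, 12 were lower and none higher, beside 10.8% and 8.38% of all genes, with a median of -0.13. With the trend removed 15 were lower, beside 5.72%. Only 3 of the 42 (7.14%) were lower in every fit, beside 2.70% of all genes. CCNE2, cyclin E2, went from 19.99 and 23.8 CPM to 11.3 and 12.3 (-0.90 ± 0.11, adjusted p = 0.00034) and did not hold, its log2 fold change being -0.54 with the trend removed.

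Promoters of many mitotic genes carry the cell cycle genes homology region, whose core letters are TTTGAA and through which the DREAM complex represses them. The 250 bases before the start of TOP2A (GRCh38.p14, chr17:40417897-40418146, minus strand) and of KIF15 (chr3:44761544-44761793, plus strand), both among the lowered genes that hold, are given from RefSeq, 5′ to 3′ in the direction of the gene, to show where these letters stand. Capitals mark TTTGAA or its reverse complement TTCAAA.
TOP2A: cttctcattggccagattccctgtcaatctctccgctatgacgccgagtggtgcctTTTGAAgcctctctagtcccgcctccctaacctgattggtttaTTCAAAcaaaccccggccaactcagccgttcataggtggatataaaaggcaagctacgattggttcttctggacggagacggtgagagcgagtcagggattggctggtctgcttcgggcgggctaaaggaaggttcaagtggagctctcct
KIF15: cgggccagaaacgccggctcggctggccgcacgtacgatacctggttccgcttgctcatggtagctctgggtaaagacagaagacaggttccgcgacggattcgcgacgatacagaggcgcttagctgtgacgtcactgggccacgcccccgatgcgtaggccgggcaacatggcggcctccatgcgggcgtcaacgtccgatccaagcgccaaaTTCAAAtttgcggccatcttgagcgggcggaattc
TOP2A has 2 matches upstream, and KIF15 has 1 that starts 35 bases before the transcription start. Searched on both strands in the 300 bases from 250 before to 50 after the start, the letters occurred in 846 of the 8555 tested genes with a single such RefSeq window (9.89%). They occurred in 22 of 29 mitosis genes (75.9%), in 1 of 29 DNA replication genes (3.45%), in 38 of 150 genes called lowered (25.3%) and in 7 of 70 called raised (10%). The called lowered genes include 14 mitosis genes. Their median transcript GC content was 37.7%, beside 48.4% over all genes tested, and the letters are mostly A and T. These shares were not compared at equal GC content. Among the lowered genes that hold, 5 of 14 had a match, namely TOP2A, CENPF, KIF14, KIF15 and FAM76B, and among the raised genes that hold 3 of 17 did, namely DUSP1, GCNT3 and PTGES. A match is a run of letters and not a measured binding site.

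The other lowered genes that hold were mostly not of the cell cycle. HAS2, a hyaluronan synthase, was at 16.03 and 17.8 CPM in DMSO and at 7.83 and 8.85 under GSK2830371 (-1.02 ± 0.10, adjusted p = 0.000178, edgeR). CDH6 (chr5:31193793-31329253), a cell adhesion molecule, was abundant, at 1064 and 779.8 CPM against 388 and 571 (-0.94 ± 0.18, adjusted p = 0.00307). RHOJ, a Cdc42-like GTPase, was at 7.21 and 5.37 CPM against 3.18 and 2.83 (-1.06 ± 0.18, adjusted p = 0.00190). The largest decreases that hold were in genes of low level, ARHGAP30, a GTPase-activating protein, at 0.599 and 0.755 CPM against 0.191 and 0.166 (-1.90 ± 0.42), and LRRN3, a leucine-rich repeat protein, at 2.71 and 2.43 against 0.636 and 0.965 (-1.68 ± 0.24). The groups do not overlap in any of these genes, though the libraries of CDH6 spread widely within each treatment.

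Genes for secreted and cell surface proteins were among the lowered genes that hold, as others were among the raised ones. SIGLEC15, a sialic acid-binding receptor, had the smallest adjusted p of the lowered genes that hold, at 81.0 and 76.4 CPM against 45.8 and 43.9 (-0.81 ± 0.062, adjusted p = 4.79e-05, edgeR). CCBE1, a matrix protein needed for VEGFC processing, was at 43.3 and 49.5 CPM against 26.4 and 26.8 (-0.80 ± 0.075, adjusted p = 0.000139), and the secretory granule chaperone SCG5 at 49.0 and 58.1 against 33.7 and 26.8 (-0.82 ± 0.14). CSF2, the cytokine GM-CSF, was at 7.47 and 7.79 CPM against 5.00 and 4.19 (-0.73 ± 0.12, adjusted p = 0.00170). In these 4 genes the treated libraries lie below the controls. CSF1R, the receptor of the macrophage growth factor, was at 3.11 and 3.56 CPM against 1.85 and 1.497 (-0.99 ± 0.19). Of 24 genes on a list of NF-kB targets and secreted inflammatory genes, 5 were lower and 1 higher, beside 10.8% and 8.38% of all genes, with a median of -0.16. Its member CXCL1, a neutrophil chemokine, fell from 237 and 259 CPM to 177 and 169 (-0.52 ± 0.075), under the 1.5-fold limit. Of 18 genes for hyaluronan, fibronectin and their receptors, 4 were lower and 2 higher, beside the same shares of all genes. Fibronectin, FN1, the gene with the most counts, was at 68673 and 64793 CPM against 66829.9 and 67310.5 (adjusted p = 0.952). ACTBL2, which fell by 0.80 ± 0.15, may share reads with the other actin genes.

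**Figure D4:**
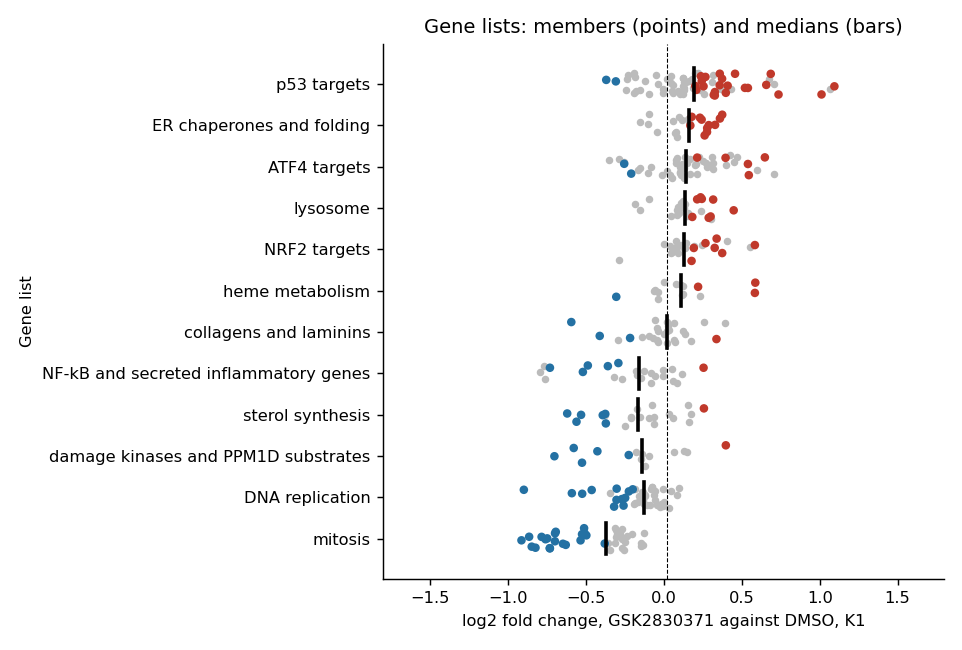
Log2 fold change of GSK2830371 against DMSO in K1 (horizontal axis) for the tested members of 12 gene lists; red points were higher and blue points lower at adjusted p under 0.05, gray points passed neither, black bars are list medians and the dashed line is the median of all genes, 0.018. All 40 mitosis genes lie left of 0, around a median of -0.37, and 54 of the 70 p53 targets lie to the right, around 0.19.

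Genes of stress pathways changed by less than 1.5-fold with few exceptions. Of 50 targets of ATF4, the transcription factor of the integrated stress response, 5 were higher and 2 lower (median 0.14), beside 8.38% and 10.8% of all genes. SLC3A2, the heavy chain of the cystine and leucine exchangers, was the only member called, at 166 and 178 CPM against 283 and 256 (0.65 ± 0.066, adjusted p = 0.000178, edgeR). It did not hold, its log2 fold change being 0.52 with the trend removed, and it was not called with replicate 2 as the only treated library. ALDH18A1, of proline synthesis, rose by 0.40 ± 0.055. Of 23 endoplasmic reticulum chaperones and folding factors, 11 were higher and none lower, each by less than 1.5-fold, beside 8.38% and 10.8% of all genes, and 9 were higher with the trend removed, beside 5.82%. Among them, HSPA5, the chaperone BiP, went from 1123 and 1088 CPM to 1431 and 1345 (0.33 ± 0.061, adjusted p = 0.00249), and HYOU1 rose by 0.36 ± 0.050. Of 26 NRF2 targets 7 were higher and none lower, beside the same 8.38% and 10.8%, with the autophagy receptor SQSTM1 at 0.33 ± 0.049 and the redox enzyme SRXN1 at 0.34 ± 0.062. Of 25 lysosome genes 8 were higher, beside 8.38% of all genes, and 2 with the trend removed, beside 5.82%.

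HMOX1, heme oxygenase, is counted both among NRF2 targets and in heme metabolism. It was at 411 and 605 CPM in DMSO and at 864 and 659 under GSK2830371, so the lower treated library lies just above the higher control. Its log2 fold change of 0.58 ± 0.17 passed the adjusted p in the 4 libraries (0.0301, edgeR) and fell just short of 1.5-fold, and it gave an adjusted p of 0.228 with replicate 2 as the only treated library and of 0.11 with the trend removed. HSPA1B, an inducible HSP70 gene with a near-identical copy, was at 40.1 and 59.2 CPM against 121 and 79.2 (1.01 ± 0.27) and gave adjusted p values of 0.155 and 0.0595 in the same fits. It was the largest increase that does not hold among genes with at least 5 CPM in the higher group.

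Most genes that did not hold were lowered genes of low GC content, with a median of 37.4%, beside 40.6% for the lowered genes that hold. The ZNF family of zinc finger genes has a low GC content too, with a median of 43.2%. Of 407 tested members, 57 were lower and 11 higher at adjusted p under 0.05, beside 10.8% and 8.38% of all genes, and 12 were called lowered, beside 1.5%. With the trend removed 12 were lower and 4 higher, beside 5.72% and 5.82%, and none holds. ZNF148 was at 91.3 and 89.1 CPM against 53.6 and 65.5, a log2 fold change of -0.60 ± 0.084 (adjusted p = 0.000653, edgeR) that came to -0.23 with the trend removed. Among 14 damage kinases and PPM1D substrates 5 were lower and 1 higher, beside 10.8% and 8.38% of all genes, and 6 were lower and 2 higher with the trend removed. ATR, the kinase of replication stress, was at 75.1 and 74.3 CPM against 43.0 and 48.8 (-0.70 ± 0.081, adjusted p = 0.000329) and NBN, of the MRE11 complex, at 94.3 and 96.6 against 60.7 and 67.2 (-0.58 ± 0.067). Both groups separate cleanly in these genes. With the trend removed the values were -0.48 for ATR (adjusted p = 0.000856) and -0.28 for NBN (adjusted p = 0.00566), still past the adjusted p and short of 1.5-fold. Of 22 sterol synthesis genes 6 were lower and 1 higher, beside 10.8% and 8.38% of all genes, among them HMGCS1 at 180 and 150 CPM against 97.4 and 126 (-0.56 ± 0.11), and 1 was lower with the trend removed, beside 5.72%.

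Several groups did not move past the test in number. None of 81 cytosolic ribosomal protein genes was higher or lower, beside 8.38% and 10.8% of all genes. Of 76 mitochondrial ribosomal protein genes 1 was higher and 4 lower, beside the same shares. Of the thyroid genes, the transcription factors PAX8 and FOXE1 were well expressed and FOXE1 rose from 28.9 and 29.1 CPM to 38.5 and 36.6 (0.37 ± 0.065, adjusted p = 0.00184, edgeR), while TSHR, DIO1 and DUOXA2 had no count in these 4 libraries and NKX2-1 had 3 to 7 counts. Of 8 blood cell markers 5 had no count, including CD3E, and the 8 summed to 122 to 145 counts a library, nearly all of them CD14. Endothelial markers summed to 174 to 301 counts, most of them KDR, with PECAM1 at 0.

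The same inhibitor was added to nutlin-treated K1 cells in 4 libraries that share none with the comparison above. All K1 libraries were fitted together with a shared estimate of the spread, so the tests are not independent of each other. Between the combination and nutlin alone, 184 genes were raised (1.16%) and 242 lowered (1.52%). Of the 26 raised genes that hold, 25 had the same sign there, 17 passed the adjusted p (5.89% of all genes were higher at it) and 11 were called. These 11 are 42.3% of the 26 and 5.98% of the 184. Of the 22 lowered genes that hold, 21 had the same sign, 17 passed (6.53% of all genes were lower) and 16 were called, or 72.7% of the 22 and 6.61% of the 242. For all genes called under GSK2830371 alone the counts were 28 of 117 raised (23.9%) and 50 of 238 lowered (21.0%).

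Sizes differed between these settings for several genes. CDKN1A rose by 1.01 alone and by 0.60 on top of nutlin (interaction adjusted p = 0.0122, edgeR), BTG2 by 1.09 and 0.32 (adjusted p = 0.00593) and PTGES by 1.13 and, not past the test, 0.27 (adjusted p = 0.0243). HAS2 changed by -1.02 alone and -1.90 on top of nutlin (adjusted p = 0.00998), and CCBE1 by -0.80 and -1.22 (adjusted p = 0.0335). SLC1A1 had values of 1.19 and 0.88 (adjusted p = 0.347), and SIGLEC15 of -0.81 and -0.83 (adjusted p = 0.922). The interaction passed the adjusted p for 6 raised and 3 lowered genes that hold (5.24% of all genes had a higher and 2.83% a lower response on top of nutlin), and it contains the libraries that chose them. It was not fitted with the GC and length trend removed, so the GC trend of the GSK2830371 libraries enters it. With the trend removed, the values alone were 0.88 for CDKN1A, 0.98 for BTG2, 1.01 for PTGES, -0.74 for HAS2 and -0.80 for CCBE1. The mitosis genes had medians of -0.37 alone and -1.08 on top of nutlin, where all 40 were lower, beside 6.53% of all genes. Under nutlin against DMSO their median was already -1.10. The ATF4 targets had medians of 0.14 alone, with 5 of 50 higher beside 8.38% of all genes, and 0.70 on top of nutlin, with 42 higher beside 5.89%. Under nutlin against DMSO their median was -0.27.

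In TPC1, GSK2830371 against DMSO raised 110 genes (0.72%) and lowered 104 (0.681%). Of the genes that hold in K1, 20 of 24 raised and 15 of 20 lowered genes with a TPC1 value had the same sign, and 1 raised and 4 lowered genes were called. CCBE1 had a log2 fold change of -0.99 (adjusted p = 0.00238, edgeR), CDH6 of -1.48 (adjusted p = 0.00117), SIGLEC15 of -0.82 (adjusted p = 0.00446) and ACTBL2 of -1.28 (adjusted p = 0.0208). SLC1A1 had 0.85 (adjusted p = 0.0386). DUSP1 had 0.58 (adjusted p = 0.0149), under 1.5-fold, and CRISPLD2 moved the other way, at -0.80 (adjusted p = 0.0295). CDKN1A had 0.28 (adjusted p = 0.216) and BTG2 0.064 (adjusted p = 0.748) in TPC1. PPM1D, which missed the test in K1, had -0.74 in TPC1 (adjusted p = 0.00548), and the difference between the lines was 0.50 ± 0.14 (adjusted p = 0.0581). In a fit of all 16 libraries the effect differed between the lines for 365 genes, 100 more positive in K1 (0.597%) and 265 more negative (1.58%), with 8 of the raised and 3 of the lowered genes that hold among them. Leaving out 1 library moved that count from 53, without K1 GSK2830371 replicate 1, to 778, without TPC1 DMSO replicate 1. The test of the difference contains the K1 libraries that chose the genes that hold.

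**Figure D5:**
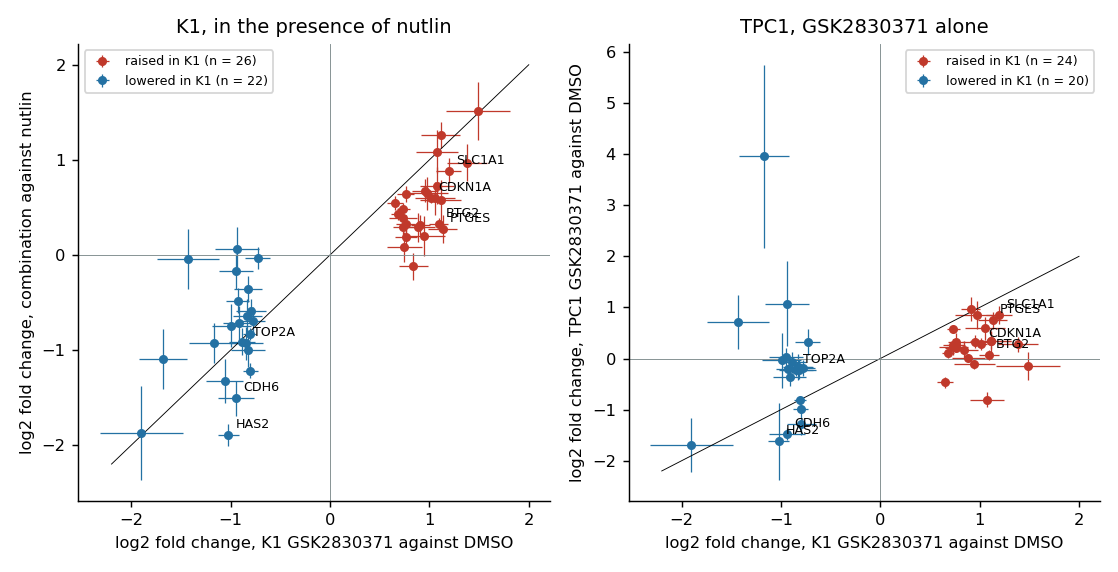
Log2 fold change by GSK2830371 alone in K1 (horizontal axes) for the genes that hold, against the combination compared with nutlin in K1 (left) and GSK2830371 compared with DMSO in TPC1 (right), with SE bars and the line of equality; 4 genes had too few counts in TPC1. On the left 25 of 26 raised and 21 of 22 lowered genes keep their sign, with HAS2 at -1.90, and on the right 20 of 24 and 15 of 20 do, with CDKN1A at 0.28.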

How the data were processed

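Poly(A)+ RNA-seq of K1 and TPC1 cells was analysed as deposited. The authors aligned single-end reads to GRCh37 with TopHat2 2.0.13, discarded poorly mapped reads and counted the rest per gene, on the reverse strand, with HTSeq 0.6.1, as named in the submitters' processing notes and the labels, so the deposited values are raw read counts without normalization. Reads were not realigned. Each column was joined to its sample through the line, treatment and replicate in its name. The TPC1 columns numbered 3, a number that the sample labels do not hold, were assigned to their treatment only.

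Counts were tested with edgeR 4.0.16 (TMM, quasi-likelihood, Benjamini-Hochberg) in R 4.3.3, over the 8 K1 libraries with more than 0.1 CPM in at least 2 libraries, and over all 16 for differences between lines. Called means adjusted p under 0.05 and a fold above 1.5, cutoffs taken from the study's methods. CPM use TMM-scaled totals (30241713 to 37161241 counts in the 4 libraries). An interval for a level would cover counting error only, and the SE given here is that of the model. Replicates differed by more than sampling noise (chi-square per degree of freedom 4.98 to 8.19). Trends in GC content and length were removed as spline offsets with 5 degrees of freedom per library, for the 15053 tested genes with values from the GENCODE annotation of GRCh37, 94.7% of those tested. Promoter sequences are RefSeq's (GRCh38.p14) and were matched by symbol, and their coordinates are not those of the counting build. DESeq2 1.42.0, limma 3.58.1, Python 3.11.15 and matplotlib 3.10.9 served alternatives, tables and plots. The procedure was tested on simulated data.

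The genes named are PPM1D, MDM2 and CDKN1A (another gene of this rule is not reported here), the 10 largest increases and decreases that hold, do not overlap and reach 5 CPM in the higher group, the 3 largest of each that do not hold, per list up to 4 members with the smallest adjusted p, and the 5 genes with the most counts. Other genes named were added after their values were seen. Comparison, lists and rules were chosen with earlier results of these data known.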

Additional observations from a re-analysis of the deposited data

Results flagged for a closer look

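The effect of GSK2830371 differed between K1 and TPC1 for 365 genes when the difference itself was tested across the 16 libraries (quasi-likelihood test of edgeR, p values adjusted by Benjamini-Hochberg, fold of the difference above 1.5). This test contains the K1 libraries by which the genes below were chosen, so a larger effect in K1 is favored among them. Among the genes that hold in K1 and those taken by the rule for named genes, the K1 effect minus the TPC1 effect was positive on the log2 scale for BTG2 (1.03 ± 0.15, SE, adjusted p = 0.00293), CDKN1A (0.73, adjusted p = 0.0166), C10orf54 (0.88), CRISPLD2 (1.88, adjusted p = 0.0014), TXNIP (1.12, adjusted p = 0.00157), FAM115C (1.63), PDGFRL (1.11), DHRS3 (1.07), CD24 (1.34), PDGFRB (1.17, adjusted p = 0.00356), TGFA (0.78), SLC7A6 (0.60) and TINAGL1 (0.59). CDKN1A had 1.01 in K1 and 0.28 in TPC1, and BTG2 had 1.09 and 0.064. The difference was negative for CNTRL (-0.72), CSF2 (-1.06), FAM76B (-0.99), SGOL2 (-0.65), HMMR (-0.69), RND3 (-0.66), ZNF507 (-0.77), HMOX1 (-1.45) and PPP1R15A (-0.80).

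HMOX1 rose by 0.58 in K1 and by 2.04 in TPC1 (difference adjusted p = 0.0254), and PPP1R15A, the regulatory subunit that directs a phosphatase to eIF2α, by 0.21 and 1.02 (adjusted p = 0.0232). PDGFRB, TGFA and SLC7A6 had opposite signs in the lines, at 0.35, 0.38 and 0.28 in K1 and -0.82, -0.41 and -0.32 in TPC1. Neither the decrease of TGFA nor that of SLC7A6 passed the adjusted p in TPC1. The increase of PDGFRB in K1 had an adjusted p of 0.0459 (edgeR), and of 0.157 with the trend removed. With the GC content and length trend removed, the adjusted p of the difference was 0.0013 for BTG2, 0.00434 for CDKN1A, 0.0132 for HMOX1 and 0.00473 for PPP1R15A. It was 0.0786 for DHRS3, 0.139 for FAM76B, 0.192 for HMMR, 0.0947 for RND3, 0.454 for SGOL2 and 0.0908 for TINAGL1. The part of the trend in these differences was not tested otherwise.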

How the results depend on the processing

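With 2 libraries a treatment, the number of genes called by GSK2830371 in K1 depended on the settings. Removing the GC content and length trend gave 60 raised and 46 lowered genes, and 876 higher and 861 lower at the adjusted p alone. DESeq2's Wald test gave 65 raised genes in this comparison and 110 for the combination against nutlin, and left 14 raised and 6 lowered genes that hold. Leaving out 1 library at a time gave 84 to 120 raised and 93 to 518 lowered genes, 599 to 1280 higher and 813 to 1932 lower, and 22 to 28 raised and 15 to 26 lowered genes that hold. It gave 87 to 195 raised and 140 to 252 lowered genes for the combination against nutlin. The 2 ends for the lowered genes are those without GSK2830371 replicate 1 and without replicate 2. The difference between lines fell from 365 genes to 172 with the trend removed and ranged from 53 to 778 with 1 library left out. The cause was not tested.

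Whether the replicate numbers mark shared cultures is not stated for these libraries. Deviations of same-numbered libraries (12544 genes) correlated at -0.32 between DMSO and GSK2830371 and at -0.26 between DMSO and both nutlin and the combination, and at 0.16, 0.34 and 0.14 among the treated groups, so the numbers were not taken as pairs. The fit with a replicate block gave 105 raised and 236 lowered genes, of which 18 and 18 held. The replicate block with the GC content and length correction gave 59 raised and 46 lowered genes, and 727 higher and 736 lower at the adjusted p alone. A replicate block within each line gave 613 genes that differed between lines. A block with the DMSO numbers crossed, chosen after seeing the data, gave 2101 higher genes. Of the 129 named genes none was called in the opposite direction, and 39 crossed the threshold in at least 1 alternative, 25 of them with the trend removed. Signs near 0 could change below the threshold. FN1 had a log2 fold change of 0.0073 in the main fit and -0.061 with the trend removed.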

Other observations

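Among gene groups not described above, 3 of 6 antiproliferative BTG and TOB genes were higher at adjusted p under 0.05, beside 8.38% of all genes. With the trend removed 2 were higher, beside 5.82%. TOB1, a partner of the deadenylation complex, rose from 23.6 and 22.9 CPM in DMSO to 31.2 and 32.0 under GSK2830371 (log2 fold change 0.44 ± 0.069, SE, adjusted p = 0.00105, edgeR), and TOB2 by 0.27 ± 0.065. TOB2 came to 0.17 with the trend removed and no longer passed (adjusted p = 0.0822, edgeR). Of 24 genes of MAP kinase output, 6 were higher and 2 lower, beside 8.38% and 10.8% of all genes, and 2 and 2 with the trend removed, beside 5.82% and 5.72%. EPHA2, an ephrin receptor, rose from 149 and 151 CPM to 214 and 201 (0.47 ± 0.052, adjusted p = 0.000283). Of 27 collagens and laminins, 3 were lower and 1 higher, beside 10.8% and 8.38%, and 8 and 1 with the trend removed, beside 5.72% and 5.82%. COL7A1, the anchoring fibril collagen, fell from 152 and 141 CPM to 111 and 110 (-0.41 ± 0.053, adjusted p = 0.000478). In each of these genes the treated libraries lie on one side of both controls.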
